A study of Mus musculus with 7 samples.

Results

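The tumour necrosis factor (TNF) superfamily was followed through 3 lymph nodes of the mouse. Its genes were taken as all array probes, control spots left out, whose accession or description gave a symbol beginning with Tnfsf or Tnfrsf, or the symbol Tnf, Lta, Ltb, Ltbr, Cd40, Cd40lg, Cd27, Cd70, Eda or Edar. The rule used names only and no measured value, though it was set with earlier results of these data known. It found 51 probes of 43 genes among 17633 gene symbols on the array. Among them Psmg2 was listed as Tnfsf5ip1 and encodes a proteasome assembly chaperone, so it matched by its letters alone and was set aside, with a log2 ratio of 0.08 ± 0.05 (SE, n = 4) for the pancreatic over the mesenteric node. The other 42 genes were 17 ligands and 25 receptors, among them Relt, which the array lists as Tnfrsf19l.

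RNA came from pancreatic (PLN), mesenteric (MLN) and inguinal (ILN) lymph nodes of female mice 12 weeks old, and each channel of an array held pooled nodes of 5 mice of 1 strain. PLN RNA was always in the red channel (Cy5). MLN RNA was in the green channel (Cy3) on 4 arrays, of BALB/c, FVB, NOD and NOD.B10 mice, and ILN RNA on 3 arrays, of FVB, NOD and NOD.B10 mice. The labels name no treatment and no transgene; the NOD strain is prone to autoimmune diabetes, and NOD.B10 has its background with a different major histocompatibility complex. The strain entry of the NOD.B10 arrays reads NOD, and their titles and source names, which read NOD.B10, were followed. A pool has no spread between its mice, so p-values measure the spread between arrays, which differ in strain. The labels do not say whether both arrays of a strain used the same PLN pool. Fewer cells of a type and less RNA per cell cannot be told apart in such samples.

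TNF superfamily ligands are mostly trimers, bound to the cell surface or released, that cluster receptors on another cell. The receptors signal through TRAF adaptors to NF-kB or, where they carry a death domain, to cell death. In lymph nodes, lymphotoxin and TNF shape stroma and follicles, BAFF (Tnfsf13b) keeps B cells alive, RANKL (Tnfsf11) acts in node formation, and several pairs give costimulation to T cells and B cells.

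The members passed or failed a filter on dim probes before any test: 3 or more of the 7 arrays had to show the probe well above background in the red or the green channel. All 25 receptors and 13 of 17 ligands passed. The ligands Cd40lg, Eda, Tnfsf12 and Tnfsf4 did not, and each was well above background in no PLN channel and in at most 2 channels of the other nodes. Edar and Tnfrsf23 passed through the green channel alone, so their ratios rest on no PLN signal well above background and gave no bound. PLN RNA gave a signal well above background on every array for 25 of 42 genes, and the green channel did so for 29 of 42. Counts over the 38 genes that passed are given as a description and support nothing by themselves.

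The promoters of 6 members are shown because the results turn on these genes: Tnfsf13b, Tnfrsf1a and Tnfrsf9 passed the test in a comparison, and Tnf, Lta and Ltb are neighbours on chromosome 17. The starts of Tnf and Lta are 3.34 kb apart and those of Tnf and Ltb 7.5 kb apart. Each sequence is the 250 bases before the RefSeq start, read 5′ to 3′ on the gene's strand, build GRCm38.p6, and capitals mark matches to the NF-kB consensus on either strand. Positions are chr8:10006217-10006466 (plus strand) for the upstream start of Tnfsf13b, chr6:125349473-125349722 (plus) for Tnfrsf1a, chr4:150927749-150927998 (plus) for the downstream start of Tnfrsf9, chr17:35205352-35205601 (minus) for Lta, chr17:35202008-35202257 (minus) for Tnf and chr17:35194257-35194506 (plus) for Ltb.
Tnfsf13b: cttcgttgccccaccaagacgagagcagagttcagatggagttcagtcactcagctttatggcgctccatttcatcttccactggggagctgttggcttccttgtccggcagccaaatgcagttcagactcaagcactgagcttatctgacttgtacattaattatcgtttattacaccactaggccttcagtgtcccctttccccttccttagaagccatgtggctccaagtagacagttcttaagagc
Tnfrsf1a: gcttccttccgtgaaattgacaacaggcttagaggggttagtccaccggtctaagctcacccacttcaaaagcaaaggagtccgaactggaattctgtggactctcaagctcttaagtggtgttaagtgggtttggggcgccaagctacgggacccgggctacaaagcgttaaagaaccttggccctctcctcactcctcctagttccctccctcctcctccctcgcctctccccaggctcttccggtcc
Tnfrsf9: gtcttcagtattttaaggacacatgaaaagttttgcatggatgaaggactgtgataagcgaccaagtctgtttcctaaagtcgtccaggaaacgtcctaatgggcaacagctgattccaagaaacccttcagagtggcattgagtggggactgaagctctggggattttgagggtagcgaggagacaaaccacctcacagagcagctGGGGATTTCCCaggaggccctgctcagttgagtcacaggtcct
Lta: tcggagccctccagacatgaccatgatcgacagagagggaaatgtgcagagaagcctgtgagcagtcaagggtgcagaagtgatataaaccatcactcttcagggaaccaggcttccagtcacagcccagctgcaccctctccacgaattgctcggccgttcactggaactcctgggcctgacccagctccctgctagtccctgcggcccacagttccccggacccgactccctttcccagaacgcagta
Tnf: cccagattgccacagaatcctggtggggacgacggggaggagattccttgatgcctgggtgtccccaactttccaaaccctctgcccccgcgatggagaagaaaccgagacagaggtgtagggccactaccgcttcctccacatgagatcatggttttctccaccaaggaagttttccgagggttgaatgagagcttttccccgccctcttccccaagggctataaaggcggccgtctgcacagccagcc
Ltb: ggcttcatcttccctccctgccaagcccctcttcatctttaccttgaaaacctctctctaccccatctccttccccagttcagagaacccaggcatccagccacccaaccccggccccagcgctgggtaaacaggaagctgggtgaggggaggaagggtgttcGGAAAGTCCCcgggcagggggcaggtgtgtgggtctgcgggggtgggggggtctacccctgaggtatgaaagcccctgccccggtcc
Of these 6 windows, those of Tnfrsf9 and Ltb held the consensus. In Tnfrsf9 a pair of overlapping matches began 43 and 42 bases before the downstream start. The window of its upstream start, not shown, held 0 matches, as did that of the downstream start of Tnfsf13b. In Ltb a match began 87 bases before the start. Among 32 members with a promoter in the RefSeq table, 4 held a match in this window (12.5%), against 7.25% of all 32851 promoters and 8.23% of all 27025 genes. The other members with a match were Tnfrsf25 and Tnfrsf8. A match is a run of letters, not a measured site.

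The median spot signal of an array was 68.0 to 105 intensity units for PLN RNA and 86.1 to 199 for the other RNA. The BALB/c and NOD arrays of the MLN were read on 1 scanner and the other 5 arrays on another. The BALB/c array stood apart from the rest: across genes measured on every array its ratios had a correlation (a description, since genes are not replicates) of 0.08 to 0.34 with those of the other arrays, which had 0.40 to 0.69 among themselves. With it left out, 46 genes and 0 members passed in PLN over MLN, 426 genes and 0 members in PLN over ILN, and 32 genes and 1 member in ILN over MLN. Because PLN RNA was never in the green channel, a dye effect of a gene stays in both PLN comparisons and leaves ILN over MLN, which is PLN over MLN minus PLN over ILN. Ratios below are log2 values after background correction with an offset of 50, which shrinks the ratios of dim genes. Genes were tested with limma across 29766 genes and unnamed probes, with Benjamini-Hochberg adjusted p-values and a threshold of 0.05. Of these, 0% were called in PLN over MLN, 1.98% in PLN over ILN and 0.255% in ILN over MLN.

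Against these backgrounds, 0 of 38 members passed in PLN over MLN, 3 of 38 in PLN over ILN (2 higher, 1 lower, where 1.51% and 0.467% of all genes did so) and 1 of 38 in ILN over MLN (higher, 0.0437% of all genes). At an unadjusted p under 0.05, limma gave 8 of 38 members in PLN over MLN (21.1%, against 15.5% of all genes), 14 in PLN over ILN (36.8% against 20.4%) and 9 in ILN over MLN (23.7% against 6.61%). Of the 8 members 6 were higher and 2 lower (9.12% and 6.42% of all genes), of the 14 members 9 and 5 (11.1% and 9.27%), and of the 9 members 3 and 6 (2.96% and 3.65%). The median ratio of the members was 0.04, 0.07 and 0.01 in these comparisons, with medians of all genes at -0.0015, -0.003 and -0.0007. Most differences were small: 35, 30 and 31 of 38 members had a log2 ratio smaller than 0.25 in size. On 36 members measured on all arrays, the MLN arrays and the ILN arrays did not overlap for 8 (22.2%, against 7.32% of all genes), with ILN over MLN above 0 for 3 and below 0 for 5 (3.62% and 3.7% of all genes). As a background for single genes below, all 4 MLN arrays lay above 0 for 15.1% of all genes and below 0 for 15.2%, and all 3 ILN arrays for 21.1% and 22.9%. Tnfsf13b, Tnf and Lta had higher PLN over MLN than PLN over ILN ratios, and Tnfrsf17, Tnfrsf1a, Tnfrsf11b, Tnfsf11 and Tnfsf15 lower.

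**Figure D1:**
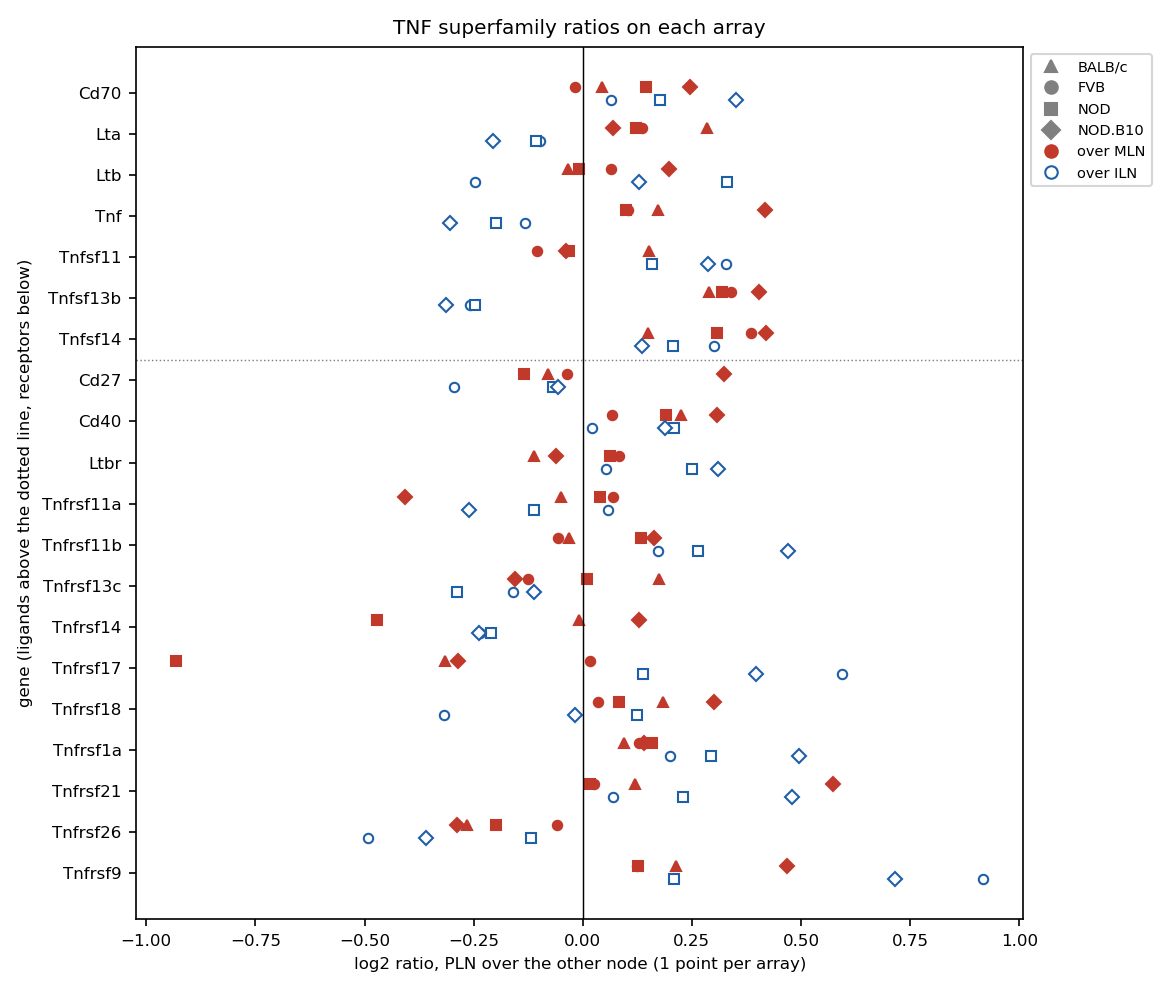
Log2 ratio of PLN over the other node on each array (x axis) for the 20 members named by rule that passed the filter (y axis, ligands above receptors); filled red symbols are arrays against the MLN, open blue symbols arrays against the ILN, and shapes give the strain. Tnfsf13b, Tnf and Lta have all red points above 0 and all blue points below 0, while Tnfrsf17 has its blue points to the right of its red ones.

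For the B cell survival factor Tnfsf13b (BAFF), the ratios gave the same order in each of the 3 strains with both arrays. It was highest in the ILN, then the PLN, then the MLN. Its log2 PLN over MLN was 0.29 in BALB/c, 0.34 in FVB, 0.32 in NOD and 0.40 in NOD.B10. Its log2 PLN over ILN was -0.26 in FVB, -0.25 in NOD and -0.31 in NOD.B10. The 4 ratios of the first kind were all above 0 and the 3 of the second all below it, with no overlap. In the fit, PLN over ILN was -0.27 ± 0.05 (SE, n = 3; adjusted p = 0.0351) and ILN over MLN was 0.61 ± 0.07 (SE, n = 7; adjusted p = 0.0113), or 1.53-fold. PLN over MLN was 0.34 ± 0.04 (SE, n = 4) and did not pass (adjusted p = 0.0914). Within strains, ILN over MLN was 0.60 in FVB, 0.56 in NOD and 0.72 in NOD.B10. This order joins 2 arrays through their PLN channels, whose Tnfsf13b levels were not equal. The gap, MLN array minus ILN array, was 0.16 in FVB, 0.40 in NOD and -0.23 in NOD.B10. A dye effect cancels in ILN over MLN but stays in both PLN ratios, where it cannot be told apart from a difference between nodes.

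Under the alternatives the Tnfsf13b ratios kept their sign, and their p-values fell on both sides of the threshold. With the strain as a block ILN over MLN was 0.63 with an adjusted p of 0.129. On the 5 arrays that shared a scanner it was 0.64 with an adjusted p of 0.161. Over 19 alternatives ILN over MLN stayed between 0.59 and 1.13, with adjusted p from 0.00436 to 0.441, and 9 passed. PLN over ILN stayed between -0.47 and -0.25 over 18 alternatives, of which 7 passed.

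The receptors of BAFF did not share that order. Tnfrsf17 (BCMA), the receptor of plasma cells for BAFF and APRIL, had values in the other direction, below 0 on 3 of 4 MLN arrays and above 0 on all ILN arrays. Its PLN over MLN was -0.32 in BALB/c, 0.02 in FVB, -0.93 in NOD and -0.29 in NOD.B10, and its PLN over ILN was 0.59, 0.14 and 0.40 in FVB, NOD and NOD.B10. All 3 ILN values lay above all 4 MLN values, and the NOD array of the MLN was the lowest. ILN over MLN was -0.75 ± 0.20 (SE, n = 7) and did not pass (adjusted p = 0.35). Over 19 alternatives it ran from -1.42 with LogRatio to -0.22 with median centring, and it passed under 0 of them. The 5 plasma cell markers had a median PLN over MLN of 0.06 and a median PLN over ILN of 0.24, with 0.53 on the FVB array of the ILN and -0.11 for ILN over MLN; their part in the result was not tested.

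Tnfrsf13c (BAFF receptor), the main BAFF receptor of mature B cells, had a PLN over MLN of -0.02 ± 0.06 (SE, n = 4) and a PLN over ILN of -0.19 ± 0.07 (SE, n = 3; adjusted p = 0.206). It was 0.17 in BALB/c, -0.12 in FVB, 0.01 in NOD and -0.15 in NOD.B10 over the MLN, and -0.16, -0.29 and -0.11 in FVB, NOD and NOD.B10 over the ILN. The values over the ILN were all below 0, and both sets overlapped. Tnfrsf13b (TACI), which binds BAFF and APRIL, was at -0.09 ± 0.08 and 0.09 ± 0.09 (SE). The ligand Tnfsf13 (APRIL) was at -0.01 ± 0.07 and 0.14 ± 0.08 (SE), with 0.42 on the FVB array of the ILN and -0.09 to 0.06 on the others. Of 8 B cell markers, 0 passed in any comparison, and their medians were 0.06 for PLN over MLN, 0.02 for PLN over ILN and -0.01 for ILN over MLN.

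**Figure D2:**
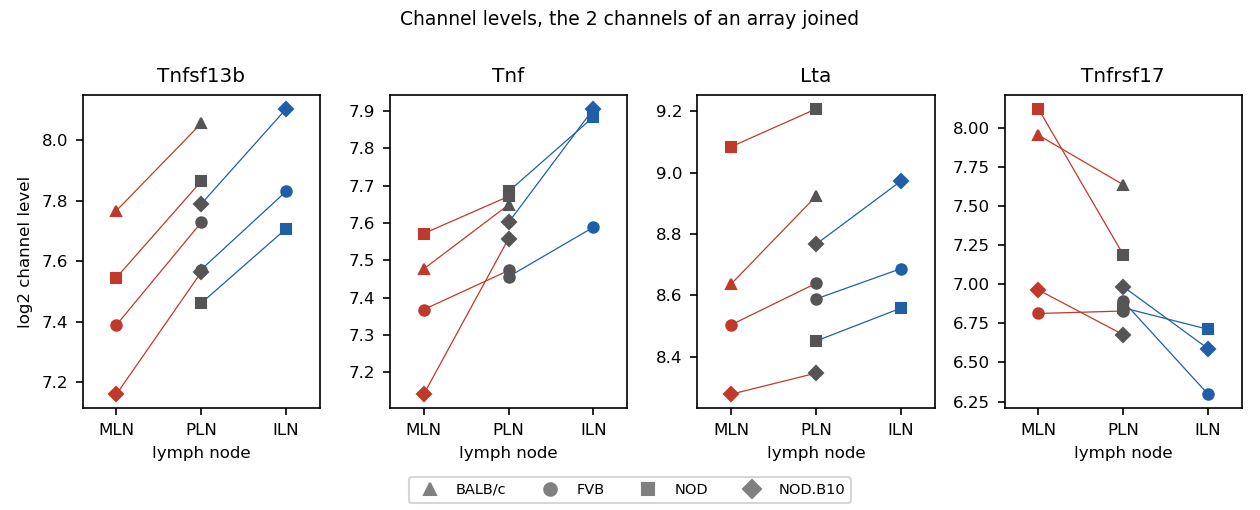
Log2 channel level (y axis, after loess and Aquantile scaling) of Tnfsf13b, Tnf, Lta and Tnfrsf17 in each node (x axis); a line joins the 2 channels of an array, shapes give the strain, red marks MLN and blue ILN channels. Every line of the first 3 genes rises from left to right, and 6 of the 7 lines of Tnfrsf17 fall.

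Tnf and Lta (lymphotoxin alpha) showed the order of Tnfsf13b at a smaller size. Tnf, the founding inflammatory cytokine of the family, had PLN over MLN ratios of 0.17 in BALB/c, 0.10 in FVB, 0.10 in NOD and 0.42 in NOD.B10. Over the ILN it was -0.13 in FVB, -0.20 in NOD and -0.30 in NOD.B10. All its values against the MLN were above 0 and all against the ILN below 0. ILN over MLN was 0.41 ± 0.10 (SE, n = 7; adjusted p = 0.217), a 1.33-fold difference that did not pass, and it passed under 0 of 19 alternatives, which ran from 0.34 to 0.92.

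Lta, which forms a secreted trimer or joins Ltb at the cell surface, had PLN over MLN ratios of 0.29 in BALB/c, 0.13 in FVB, 0.12 in NOD and 0.07 in NOD.B10. Against the ILN it was -0.10, -0.11 and -0.21 in FVB, NOD and NOD.B10. Again the groups did not overlap, and ILN over MLN was 0.29 ± 0.08 (SE, n = 7; adjusted p = 0.333), within 0.23 to 0.27 in the 3 strains. Over 19 alternatives it ran from 0.24 to 1.04, the highest with median centring, and passed under 0. Ltb (lymphotoxin beta), the third gene of the locus, had no such order: -0.03, 0.06, -0.01 and 0.20 over the MLN in BALB/c, FVB, NOD and NOD.B10, and -0.25, 0.33 and 0.13 over the ILN in FVB, NOD and NOD.B10. Its ILN over MLN was -0.02 ± 0.13 (SE, n = 7; adjusted p = 0.995), with 0.31 in FVB and -0.34 in NOD.

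**Figure D3:**
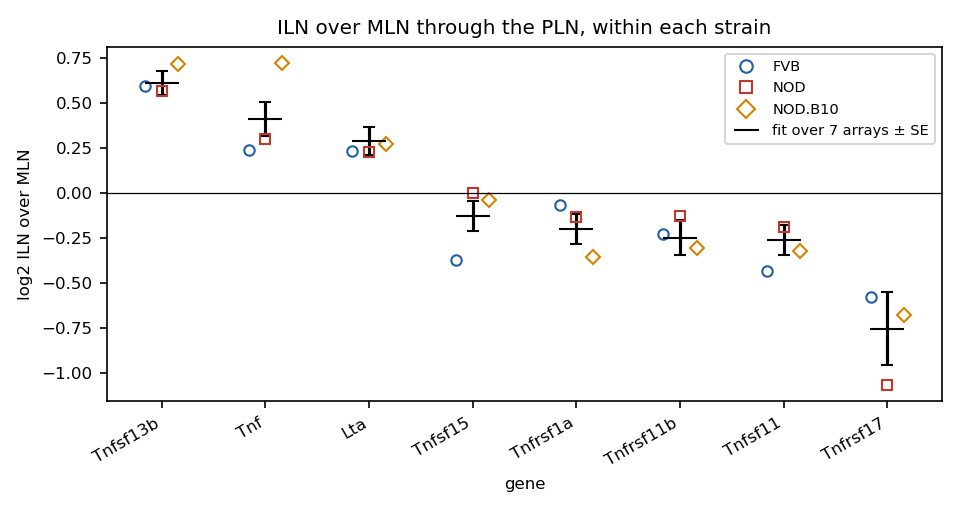
Log2 ILN over MLN (y axis), taken through the PLN as the difference of a strain's 2 arrays, for the 8 members whose MLN and ILN arrays did not overlap (x axis); symbols are single strains and black bars the fit over 7 arrays ± SE. Tnfsf13b lies between 0.56 and 0.72 in the 3 strains, and Tnfrsf17 between -1.07 and -0.58.

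Of the receptors of these ligands, 1 passed. Tnfrsf1a (TNF receptor 1), the widely expressed death domain receptor of TNF, was higher in the PLN channel than in the ILN channel. It was 0.20 in FVB, 0.29 in NOD and 0.49 in NOD.B10 over the ILN, and 0.09, 0.13, 0.16 and 0.14 in BALB/c, FVB, NOD and NOD.B10 over the MLN. All 7 values were above 0, and those over the ILN were all higher than those over the MLN. PLN over ILN was 0.33 ± 0.06 (SE, n = 3; adjusted p = 0.0384), or 1.26-fold, and PLN over MLN was 0.13 ± 0.05 (SE, n = 4; adjusted p = 0.306). The call held under 7 of 18 alternatives, with adjusted p from 0.0137 to 0.993, and with the NOD.B10 array of the ILN left out the ratio was 0.25 with an adjusted p of 0.301. ILN over MLN was -0.20 ± 0.08 (SE, n = 7; adjusted p = 0.726), and turned to 0.64 with median centring. A dye effect cancels in this ratio but stays in PLN over ILN, where it cannot be told apart from a difference between nodes.

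Tnfrsf1b (TNF receptor 2), the TNF receptor of lymphocytes and myeloid cells, was at 0.16 ± 0.07 (SE, n = 4) over the MLN and 0.10 ± 0.08 (SE, n = 3) over the ILN, and its second probe at 0.04 and 0.0017. Ltbr, the lymphotoxin receptor of stroma and myeloid cells, had values of -0.11, 0.08, 0.06 and -0.06 over the MLN in BALB/c, FVB, NOD and NOD.B10, and 0.05, 0.25 and 0.31 over the ILN in FVB, NOD and NOD.B10. Its PLN over ILN was 0.20 ± 0.07 (SE, n = 3; adjusted p = 0.156), above 0 on all 3 arrays and overlapping the MLN arrays. Macrophage and monocyte markers, cells that also carry Tnfrsf1a and Ltbr, were higher in the PLN than in the ILN for 4 of 8 genes (Marco 1.76, Adgre1 1.11, Csf1r 0.77 and Siglec1 0.59; adjusted p = 0.000198, 0.00414, 0.0109 and 0.0178). Their median ratio per array was 0.45 to 0.65 against the ILN and -0.07 to 0.02 against the MLN. Their part in these ratios was not tested.

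Tnfsf14 (LIGHT), a ligand of Ltbr and of Tnfrsf14, was higher in the PLN channel than in the green channel on all 7 arrays. It was 0.15 in BALB/c, 0.38 in FVB, 0.31 in NOD and 0.42 in NOD.B10 over the MLN, and 0.30, 0.21 and 0.14 in FVB, NOD and NOD.B10 over the ILN. The MLN and ILN values overlapped. Neither PLN over MLN, 0.32 ± 0.06 (SE, n = 4; adjusted p = 0.116), nor PLN over ILN, 0.21 ± 0.07 (SE, n = 3; adjusted p = 0.137), passed. Over 18 alternatives PLN over MLN ran from 0.28 to 1.01, and it passed under 1, array weights (adjusted p = 0.0472). A difference of the same sign against both nodes and a dye effect cannot be told apart here. Tnfrsf14 (HVEM), the other receptor of LIGHT, was at -0.01 in BALB/c, -0.47 in NOD and 0.13 in NOD.B10 over the MLN, and -0.24, -0.21 and -0.24 over the ILN in FVB, NOD and NOD.B10. Its spot on the FVB array of the MLN was left out as an outlier. Its fitted PLN over ILN was -0.23 ± 0.10 (SE, n = 3; adjusted p = 0.266).

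**Figure D4:**
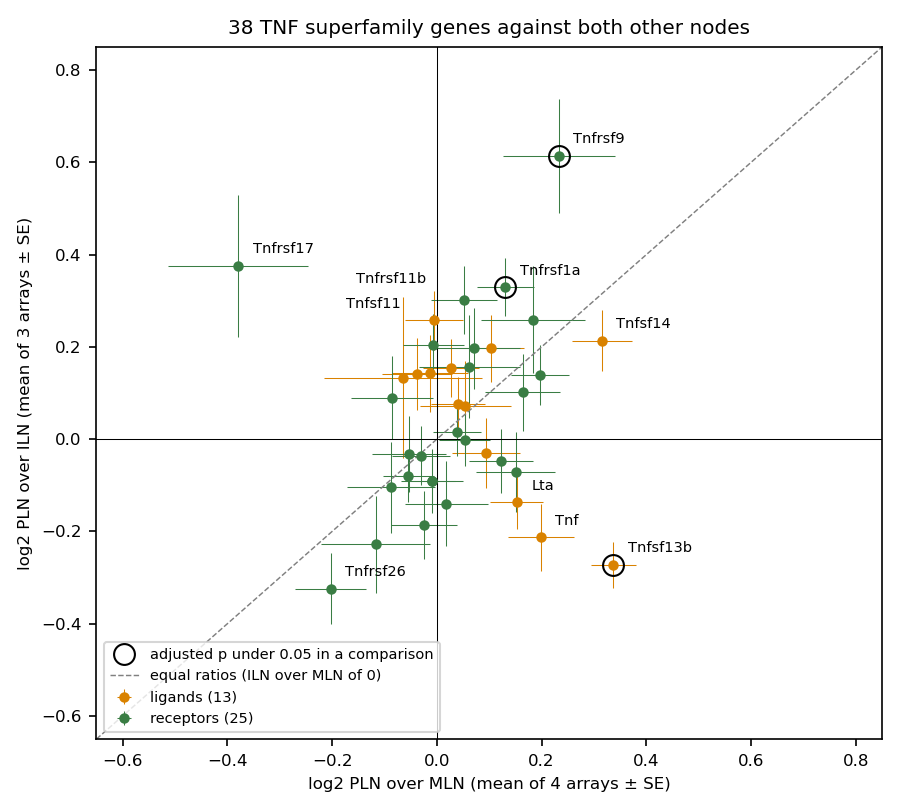
Log2 PLN over MLN (x axis, 4 arrays) against log2 PLN over ILN (y axis, 3 arrays) for the 38 members that passed the filter, with SE bars, ligands in orange and receptors in green; rings mark genes with an adjusted p under 0.05 in a comparison. Tnfsf13b, Tnf and Lta lie in the lower right, Tnfrsf17 alone in the far upper left, and Tnfrsf9 highest.

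In the RANK system, a pathway of bone and of lymph node formation, no gene passed. The MLN and ILN arrays did not overlap for 2 of 3 genes, beside 7.32% of all genes. For 1 of the 2, Tnfsf11, a second probe read close to 0. The ligand Tnfsf11 (RANKL) had ratios of 0.15, -0.10, -0.03 and -0.04 over the MLN in BALB/c, FVB, NOD and NOD.B10 and of 0.33, 0.16 and 0.29 over the ILN in FVB, NOD and NOD.B10. The ILN values lay above all MLN values. PLN over ILN was 0.26 ± 0.06 (SE, n = 3; adjusted p = 0.0848) and ILN over MLN -0.26 ± 0.08 (SE, n = 7; adjusted p = 0.522), which turned to 0.064 with median centring, while a second probe of the gene, well above background on all 7 arrays, read -0.01 in both. The decoy receptor Tnfrsf11b (osteoprotegerin) read -0.03, -0.06, 0.13 and 0.16 over the MLN in BALB/c, FVB, NOD and NOD.B10 and 0.17, 0.26 and 0.47 over the ILN in FVB, NOD and NOD.B10. Its PLN over ILN was 0.30 ± 0.07 (SE, n = 3; adjusted p = 0.0792). The signalling receptor Tnfrsf11a (RANK) read -0.05, 0.07, 0.04 and -0.41 over the MLN in BALB/c, FVB, NOD and NOD.B10 and 0.06, -0.11 and -0.26 over the ILN in FVB, NOD and NOD.B10, with overlap, and a fitted value of -0.09 ± 0.08 (SE, n = 4) over the MLN and -0.10 ± 0.10 (SE, n = 3) over the ILN.

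Among costimulatory members, Tnfrsf9 (4-1BB), an activation receptor of T and NK cells, was higher in the PLN channel than in the ILN channel. It was 0.92 in FVB, 0.21 in NOD and 0.72 in NOD.B10 over the ILN, and 0.21, 0.13, 0.13 and 0.47 in BALB/c, FVB, NOD and NOD.B10 over the MLN. All 7 values were above 0, and the NOD array of the ILN fell among the MLN arrays. The larger ratios, in FVB and NOD.B10, were against dim ILN channels, though these were marked well above background. ILN levels were 6.04 in FVB, 7.01 in NOD and 6.26 in NOD.B10, where the medians of all genes were 6.72, 6.70 and 6.72. In FVB this was below Cd40lg (6.30), which was not well above background there. PLN over ILN was 0.61 ± 0.12 (SE, n = 3; adjusted p = 0.0444), or 1.53-fold, and PLN over MLN was 0.23 ± 0.11 (SE, n = 4; adjusted p = 0.332). In both, a dye effect cannot be told apart from a difference between nodes. ILN over MLN, in which a dye effect cancels, was -0.38 ± 0.16 (SE, n = 7; adjusted p = 0.736) and did not pass. A second probe, well above background on 4 arrays, read -0.0016 over the MLN and 0.02 over the ILN, and with the mean of both probes the PLN over ILN ratio was 0.32 with an adjusted p of 0.0604. The call held under 5 of 18 alternatives, with adjusted p from 0.0139 to 0.993, and the ratio was 1.14 with an offset of 0. Its ligand Tnfsf9 was at 0.04 ± 0.05 (SE, n = 4) over the MLN and was in no PLN channel of the ILN arrays well above background. Of 6 markers of regulatory and activated T cells, Pdcd1 passed in the same comparison (0.47 ± 0.06, SE, n = 3; adjusted p = 0.0121), and the list's median was 0.06. Icos (-0.27) and Ctla4 (-0.13) were below 0 there with unadjusted p of 0.0402 and 0.0407, and Foxp3 was at 0.0084.

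Cd40, the receptor of B cells and dendritic cells for T cell help, was higher in the PLN channel on all 7 arrays: 0.22, 0.07, 0.19 and 0.31 over the MLN in BALB/c, FVB, NOD and NOD.B10, and 0.02, 0.21 and 0.19 over the ILN in FVB, NOD and NOD.B10. Its PLN over MLN was 0.20 ± 0.06 (SE, n = 4; adjusted p = 0.202) and did not pass. Its ligand Cd40lg, carried by activated T cells, failed the filter and was well above background in no PLN channel, so its ratios are not given. Cd27, a costimulatory receptor of T cells, read -0.08, -0.04, -0.14 and 0.32 over the MLN in BALB/c, FVB, NOD and NOD.B10. Over the ILN it read -0.29, -0.07 and -0.06 in FVB, NOD and NOD.B10. Its values over the ILN were all below 0, at -0.14 ± 0.09 (SE, n = 3; adjusted p = 0.409). Over the ILN the 10 T cell markers had a median of -0.25, and 1 of them, Il7r, passed (-0.50 ± 0.09, SE, n = 3; adjusted p = 0.0267); what part this had in the values of T cell receptors of the family was not tested.

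Cd70, the ligand of Cd27, read 0.04, -0.02, 0.14 and 0.24 over the MLN in BALB/c, FVB, NOD and NOD.B10 and 0.07, 0.18 and 0.35 over the ILN in FVB, NOD and NOD.B10, with a fitted 0.20 ± 0.07 (SE, n = 3; adjusted p = 0.185) over the ILN. Tnfrsf18 (GITR), carried by regulatory T cells, read 0.18, 0.03, 0.08 and 0.30 over the MLN in BALB/c, FVB, NOD and NOD.B10 and -0.32, 0.12 and -0.02 over the ILN in FVB, NOD and NOD.B10, with overlap. Its PLN over MLN was 0.15 ± 0.08 (SE, n = 4; adjusted p = 0.362), above 0 on all 4 arrays. Tnfrsf4 (OX40), another activation receptor of T cells, was at 0.12 ± 0.06 and -0.05 ± 0.07 (SE). Tnfsf8 (CD30 ligand) had the widest spread of the ligands against the ILN, with 0.81 in FVB, -0.34 in NOD and -0.06 in NOD.B10, so its mean of 0.13 ± 0.17 (SE, n = 3) lies within the spread between strains.

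Of the death receptors and decoys, Tnfrsf26 was lower in the PLN channel on all 7 arrays. It read -0.26, -0.06, -0.20 and -0.29 over the MLN in BALB/c, FVB, NOD and NOD.B10 and -0.49, -0.12 and -0.36 over the ILN in FVB, NOD and NOD.B10. It passed against neither node (-0.20 ± 0.07, n = 4, adjusted p = 0.255, and -0.32 ± 0.08, n = 3, adjusted p = 0.077, both SE), PLN over MLN turned to 0.096 with median centring, and a dye effect cannot be told apart from a difference. Tnfrsf21 (death receptor 6) read 0.12, 0.03, 0.02 and 0.57 over the MLN in BALB/c, FVB, NOD and NOD.B10 and 0.07, 0.23 and 0.48 over the ILN in FVB, NOD and NOD.B10. Both NOD.B10 arrays were its highest, on a probe that agrees in sign with the gene's second probe (0.16 against both nodes). Its PLN over ILN was 0.26 ± 0.12 (SE, n = 3; adjusted p = 0.248).

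The remaining members lay close to 0. The TRAIL ligand Tnfsf10 was at -0.04 ± 0.07 and 0.14 ± 0.08 (SE) against the MLN and ILN, and its receptor Tnfrsf10b at -0.01 ± 0.06 and -0.09 ± 0.07 (SE). Tnfrsf12a, the receptor of TWEAK, reached 0.53 on the FVB array of the ILN and lay between -0.07 and 0.22 on the others. Tnfrsf25 (death receptor 3) read -0.05 ± 0.05 and -0.08 ± 0.06 (SE), while its second probe read 0.25 and 0.20, so the probes disagree in sign. Its ligand Tnfsf15 had 0.15 ± 0.06 (SE, n = 3; adjusted p = 0.216) over the ILN, where its lowest array, 0.0798, was barely above its highest array over the MLN, 0.0793. Relt, Tnfrsf22, Tnfrsf23, Tnfrsf8, Tnfrsf19, Edar and Tnfsf18 all had fitted ratios between -0.09 and 0.20 against both nodes, and none passed. On the ILN arrays Tnfrsf8, Tnfsf18, Edar and Tnfrsf23 had no PLN channel well above background.

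As classes, ligands and receptors both had medians near 0. Against the ILN, 13 ligands had a median of 0.13 and 25 receptors of -0.0012; against the MLN the medians were 0.05 and 0.02. The difference between the classes was not tested. Members whose MLN and ILN arrays did not overlap were 5 of 13 ligands (38.5%) and 3 of 23 receptors (13%), beside 7.32% of all genes.

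Strains could be compared only by single arrays. FVB stood apart from both NOD strains against the ILN for Tnfsf8 (0.81 against -0.34 and -0.06), Ltb (-0.25 against 0.33 and 0.13), Tnfrsf12a (0.53 against -0.06 and 0.01) and Tnfsf13 (0.42 against 0.04 and -0.03). These genes were picked after their values were seen, and each strain had 1 array per node, so there is no test. Channel levels were set across arrays only as an alternative, since the PLN levels of a strain differed between its 2 arrays. The gap, on the MLN array minus the ILN array, was 1.31 log2 units for Ltb and 0.76 for Lta in NOD, whose arrays came from different scanners. It was -1.04 for Tnfsf13 in NOD.B10, whose arrays came from the same scanner. For Tnf the same PLN levels differed by at most 0.04 in the 3 strains.

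Few genes of the surrounding pathway were called. Of 17 receptor adaptors and ubiquitin ligases, 17 NF-kB subunits and regulators, 5 superfamily genes under other symbols, 6 TNF-induced genes and 4 shedding proteases that were tested, limma called 0 in any comparison. Relt is in the list of other symbols and is also 1 of the 25 receptors above. At an unadjusted p under 0.05 in PLN over MLN, 3 adaptors were higher and 1 lower, and 3 NF-kB genes were higher and 1 lower (9.12% and 6.42% of all genes). In PLN over ILN 0 adaptors were higher and 2 lower, and 4 NF-kB genes were higher and 1 lower (11.1% and 9.27%). In ILN over MLN 2 adaptors were higher and 0 lower, and 0 NF-kB genes passed in either direction (2.96% and 3.65%). Of 11 tested genes listed as lymphotoxin or TNF targets in node stroma, 1 passed: Madcam1, the mucosal addressin of high endothelial venules, was higher in the PLN than in the ILN (1.69 ± 0.23, SE, n = 3; adjusted p = 0.0108). In that comparison 1.51% of all genes passed as higher. At an unadjusted p under 0.05, limma gave 4 genes of this list higher and 2 lower in PLN over MLN. The counts were 3 and 1 in PLN over ILN and 2 and 2 in ILN over MLN, beside the shares of all genes just given. Of this list, Cr2, Ccl19 and Glycam1 are also among the markers of B cells, fibroblastic stroma and blood endothelium. Cxcl13, the B cell follicle chemokine, had the order of Tnfsf13b without passing: 0.64, 0.12, 0.54 and 0.33 over the MLN in BALB/c, FVB, NOD and NOD.B10, and -0.78, -0.31 and -0.20 over the ILN in FVB, NOD and NOD.B10. Its ILN over MLN was 0.84 ± 0.16 (SE, n = 7; adjusted p = 0.118), and it was picked after its values were seen. The list as a whole did not share this order. In ILN over MLN 5 of its 11 tested genes were above 0 and 6 below, with a median of -0.03. Cxcl13 was the highest of them and Madcam1, at -1.48, the lowest. Ccl19, a chemokine of the T cell zone, was at 0.46 ± 0.13 (SE, n = 4; adjusted p = 0.197) over the MLN.

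Some markers of other tissues differed between nodes, and some differed between arrays of the same node pair. Pancreatic acinar genes were higher in the PLN than in the ILN for 5 of 6 tested genes, with a list median of 4.29, and lymphatic endothelial genes for 3 of 5, with a median of 0.60. In the same comparison 2 of 7 NK and cytotoxic genes (median -0.23), 1 of 6 type 17 and innate lymphoid genes (-0.07) and 1 of 7 blood endothelial genes (0.06) passed as lower. As higher passed 1 of 8 dendritic cell genes (median 0.04) and 2 of 8 genes of fibroblastic stroma (-0.05), and 0 passed of 5 neutrophil (0.09), 6 white fat (0.90), 7 skin and mammary (-0.17) and 3 erythroid genes (0.03), nor of any of these lists in PLN over MLN, where the acinar (3.43), erythroid (1.02) and neutrophil (0.71) medians were the highest. The BALB/c array stood apart in all 3: its neutrophil median was 1.84 against 0.04 to 0.51 on the other MLN arrays, its erythroid median 2.23 against 0.59 to 0.65, and its acinar median 0.23 against 3.09 to 4.98. Its median acinar level was high in both channels, 15.52 in the PLN and 15.09 in the MLN, against 9.64 to 12.30 in the other MLN channels. White fat genes over the ILN were at -0.25 in FVB and at 1.43 in NOD and 1.66 in NOD.B10. What part such cells had in the ratios of the family was not tested.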

How the data were processed

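The deposited scanner files of 7 arrays hold spot and background intensity values from Agilent Feature Extraction 8.5.1.1, marks of 0 or 1 for outlier, saturated and well-above-background spots, and a LogRatio, the log10 of red over green, per the file headers. The value table deposited for the series holds log2 values: on 6 arrays they equal the scanner log2 ratio of red over green minus a constant of 0.0018 to 0.0798 within 1e-04, and on the FVB array of the MLN up to 0.957 apart. Its column medians were 0.0337 (BALB/c), 0.0205 (FVB), 0.0935 (NOD) and 0.0098 (NOD.B10) for the MLN arrays and 0.008, 0.0461 and 0.0073 for the ILN arrays of FVB, NOD and NOD.B10. Scale and direction are thus settled, and the origin of these constants is unknown here.

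Intensities were corrected with normexp (offset 50) and normalized by loess in limma 3.58.1 (R 4.3.3; files read with data.table version 1.17.8), giving control spots and outlier marks a weight of 0 and dropping the outliers afterwards. Probes were named by RefSeq accession (22064 of 41174) or by the symbol in the description (2264), and 16846 had no symbol. Probes well above background on at least 3 of 7 arrays were kept, and the brightest stood for a gene. A single limma fit with a coefficient per node pair used all arrays (5 residual and 3.85 prior degrees of freedom). All tests were two-sided. Alternatives covered background, normalization, filter, probes, weights, scanner, strain and single arrays. The number of arrays limits the precision.

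The members, gene lists and tests were chosen with earlier results of these data known. Values on every array are given for members called in a comparison, for up to 6 more per comparison with the largest ratios, and for Tnf, Lta, Ltb, Ltbr, Cd40, Cd27, Cd70, Tnfsf11, Tnfrsf11a, Tnfsf13b and Tnfrsf13c; Cd40lg, under the same rule, failed the filter. Coordinates and promoters are those of RefSeq on GRCm38.p6. Lists of pathway genes and of cell type markers were fitted on the same table.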

Additional observations from a re-analysis of the deposited data

How the results depend on the processing

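The number of called genes depended on the processing. Against 0 genes in PLN over MLN, 589 in PLN over ILN and 76 in ILN over MLN, an offset of 0 gave 49 in PLN over ILN (87.8% of them higher, against 76.4%) and 3 in ILN over MLN, LogRatio 65 and 12, the values deposited for the series 32 and 0, median centring 0 and 0, and the scanner as a block 495 and 18. ILN over MLN had 26 with the strain as a block and 115 with a filter on all 7 arrays. No background correction gave 37 in PLN over MLN, and array weights gave 189, 1581 and 178 in the order above. The scanner of 5 arrays alone gave 20, 334 and 7. Leaving out each array gave 0 to 46, 32 to 738 and 15 to 88. PLN over MLN had 46 calls without BALB/c and 9 without FVB on the ILN. PLN over ILN had 32, 269 and 374 without NOD.B10 on ILN, FVB on MLN and FVB on ILN arrays, and ILN over MLN 15 and 17 without NOD.B10 and NOD on ILN arrays, and 30 to 33 without any 1 of the MLN arrays.

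Members called in PLN over ILN (3) were 0 with an offset of 0, LogRatio, the deposited values, median centring or the scanner of 5 arrays alone. They were 1 with the scanner as a block and 5 with array weights. With an array left out they were 0 to 3: 0 without BALB/c, FVB or NOD on MLN or NOD.B10 on ILN arrays, and 1 without FVB on ILN. In ILN over MLN (1) they were 0 under the same 5 settings, the scanner block and the strain block, and 0 to 1 with an array left out, 0 without FVB on MLN or NOD or NOD.B10 on ILN arrays. In PLN over MLN (0) they were 1 without background correction and 2 with array weights.

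Of 1114 alternative values of single members, 997 were unchanged. Among these, ratios kept direction and side of the threshold, and direct channel levels, which have no p-value, moved by less than their spread. Another 5 levels moved further. Of the ratios, 45 lost a call, 6 gained one and 61 changed sign, the last all for ratios that had not passed. Most values were of ratios never called. The called ratios kept their call under 7 of 18 alternatives (Tnfsf13b, PLN over ILN), 9 of 19 (Tnfsf13b, ILN over MLN), 7 of 18 (Tnfrsf1a) and 5 of 18 (Tnfrsf9). Median centring, which moved the median ILN over MLN of all genes from -0.0007 to 0.13, turned PLN over MLN to 0.93 (Ltbr), 0.96 (Tnfrsf13c), 0.61 (Tnfrsf14), 0.096 (Tnfrsf26) and 0.18 (Tnfsf11), PLN over ILN of Tnfrsf18 to 0.076, and ILN over MLN to 1.01 (Ltb), 0.61 (Ltbr), 0.64 (Tnfrsf1a), 0.30 (Tnfrsf21), 0.11 (Tnfrsf9) and 0.064 (Tnfsf11). With an offset of 0, LogRatio, the deposited values and array weights, PLN over MLN of Cd27 turned to -0.0019, -0.011, -0.043 and -0.058, and that of Tnfsf11 to 0.036, 0.091, 0.058 and 0.0047. PLN over MLN of Ltbr turned to 0.0026 without background correction, 0.0055 with array weights and 0.011 in both scanner settings, that of Tnfrsf13c to 0.012 with array weights, and that of Tnfrsf14 to 0.13 in both scanner settings. ILN over MLN of Ltb turned to 0.12 with an offset of 0, 0.090 with LogRatio, 0.094 with the deposited values, 0.013 with the strain block and 0.06 in both scanner settings, where Tnfrsf11a turned to -0.065 and Tnfrsf21 to 0.040. That of Tnfrsf14 turned to -1.68 with LogRatio and -1.44 with the deposited values, both of which keep the outlier spot on FVB over MLN (scanner log2 ratio -7.56).

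With an array left out, PLN over MLN ranged from -0.084 to 0.069 (Cd27), -0.037 to 0.028 (Ltbr), -0.14 to 0.020 (Tnfrsf11a), -0.090 to 0.020 (Tnfrsf13c), -0.24 to 0.061 (Tnfrsf14) and -0.058 to 0.027 (Tnfsf11). PLN over ILN ranged from -0.059 to 0.23 (Ltb) and -0.17 to 0.053 (Tnfrsf18), and ILN over MLN from -0.0004 to 0.10 (Cd40), -0.18 to 0.11 (Ltb), -0.061 to 0.12 (Tnfrsf11a), -0.012 to 0.29 (Tnfrsf14) and -0.21 to 0.034 (Tnfrsf21). ILN minus MLN set directly from green channel levels moved by more than its spread for 5 members when processed signals scaled to the 75th percentile replaced loess and Aquantile, to 0.81 for Tnf and Tnfsf13b, -0.52 for Tnfrsf11b, -1.74 for Tnfrsf17 and -1.16 for Tnfsf11. Apart from the outlier spot and the smaller sets of arrays or genes, the cause was not tested. Ratios of members near background are limited by signal, and the offset shrinks them.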
